A study of Mus musculus with 17 samples.

Results

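The 10 genes described here encode the NF-κB transcription factor subunits (Nfkb1, Nfkb2, Rel, Rela and Relb) and the IκB proteins that bind them (Nfkbia, Nfkbib, Nfkbie, Nfkbiz and Bcl3). They were chosen by symbol from a table of 21683 rows, each symbol matched exactly 1 row, and all 10 passed the filter on low values that 10451 genes passed. The libraries were RNA-Seq of peritoneal macrophages, elicited with thioglycollate, from eight-week-old C57BL/6 mice that all carried loxP-flanked IKKβ alleles (IKKβF/F). Cells were left to attach for 4 h and then received PBS or HIV protein Tat at 100 nM for 12 h. The 3 groups were IKKβF/F macrophages with PBS (IKKβF/F PBS, 6 libraries, numbered 1 to 6), IKKβF/F macrophages with Tat (IKKβF/F Tat, 6 libraries, 7 to 12) and IKKβΔMye macrophages with Tat (IKKβΔMye Tat, 5 libraries, 19 to 23). The IKKβΔMye mice also carried LysM-Cre, a knock-in at the lysozyme 2 locus that deletes the floxed IKKβ segment in myeloid cells. IKKβ-deleted macrophages with PBS were not analysed here, so the effect of Tat within that genotype was not measured. The labels do not say how the libraries of a group were obtained, but the study describes its replicates as biological replicates from mice.

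NF-κB subunits pair through a shared Rel homology domain. RelA, RelB and c-Rel carry an activation domain, whereas the Nfkb1 and Nfkb2 products p105 and p100 are precursors that are processed to p50 and p52 and that hold partner subunits in the cytoplasm through their own ankyrin repeats. IκBα (Nfkbia), IκBβ (Nfkbib) and IκBε (Nfkbie) retain dimers in the cytoplasm until IKK phosphorylates them and they are degraded, and several of these genes are themselves NF-κB targets, which gives the pathway its feedback. IκBζ (Nfkbiz) and Bcl-3 (Bcl3) act in the nucleus, where they bind p50 or p52 homodimers on DNA and modify the transcription of selected target genes. The extracellular HIV protein Tat is known to activate this pathway in macrophages, and the comparisons ask how mRNA of its own components changed with Tat, and how it differed when IKKβ was deleted.

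The promoters are shown because the subunits that 5 of these genes encode can bind the κB consensus, the element recognised by NF-κB dimers. A second reason is that the genes moved by very different amounts. RefSeq promoters (GRCm38.p6) covering 250 bases before and 50 bases after an annotated start were at hand for 7 of the 10 genes; Nfkb1, Relb and Nfkbiz were not matched. On both strands the κB consensus was found in 5 of these 7 genes (Nfkb2, Rel, Nfkbia, Nfkbie and Bcl3), against 9.55% of the 27025 genes in that set. Below, each line gives the 150 bases from position -130 to +20 relative to the first listed start (the first transcribed base is +1 and there is no position 0), 5′ to 3′ on the strand of the gene, with consensus matches on either strand in capitals and overlapping matches merged.
Nfkb2 (chr19:46304607-46304756, plus strand): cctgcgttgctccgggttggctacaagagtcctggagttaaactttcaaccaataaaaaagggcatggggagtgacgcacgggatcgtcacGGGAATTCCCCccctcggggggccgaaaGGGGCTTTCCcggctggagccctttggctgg
Rel (chr11:23770950-23771099, minus strand): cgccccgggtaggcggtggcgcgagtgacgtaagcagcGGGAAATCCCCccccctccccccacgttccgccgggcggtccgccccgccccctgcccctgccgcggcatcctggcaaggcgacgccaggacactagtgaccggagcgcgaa
Nfkbia (chr12:55492628-55492777, minus strand): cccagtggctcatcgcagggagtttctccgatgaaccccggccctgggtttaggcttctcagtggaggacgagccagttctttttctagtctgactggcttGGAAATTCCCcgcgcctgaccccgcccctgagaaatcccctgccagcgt
Nfkbie (chr17:45555570-45555719, plus strand): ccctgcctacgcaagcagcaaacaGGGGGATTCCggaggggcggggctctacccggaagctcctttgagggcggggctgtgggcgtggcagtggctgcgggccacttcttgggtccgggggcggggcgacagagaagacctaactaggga
Bcl3 (chr7:19822736-19822885, minus strand): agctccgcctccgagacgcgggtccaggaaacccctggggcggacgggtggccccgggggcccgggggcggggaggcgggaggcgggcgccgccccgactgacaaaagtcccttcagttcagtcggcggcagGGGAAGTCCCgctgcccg
Rela (chr19:5637411-5637560, plus strand): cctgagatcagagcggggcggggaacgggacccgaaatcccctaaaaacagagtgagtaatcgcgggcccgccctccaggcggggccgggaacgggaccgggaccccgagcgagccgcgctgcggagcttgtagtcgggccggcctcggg
Nfkbib (chr7:28766625-28766774, minus strand): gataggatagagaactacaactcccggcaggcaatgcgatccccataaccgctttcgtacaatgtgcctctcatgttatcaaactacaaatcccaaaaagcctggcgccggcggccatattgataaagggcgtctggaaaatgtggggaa
At the first listed start of Nfkb2 the matches formed 2 separate sites, at -39 and -11. Nfkb2 had 3 listed starts, whereas each other gene shown had 1, so more bases were searched for Nfkb2. Its start 2 had sites at -236 and +11, and its start 3 had 1 at -225, the same bases as the site at +11. Rel, Nfkbia and Nfkbie had 1 site each, at -92, -29 and -106, and the site of Bcl3 lay just downstream of the start, at +3. Rela and Nfkbib are shown because these letters did not occur anywhere in their windows. A match is a stretch of letters and not a measured binding site.

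The deposited values are TPM (length-normalised transcript abundance), which are scaled per transcript length and per library, so levels of different genes may be compared, but read depth is unknown. Genes were tested with limma on log2(TPM + 0.1), all 3 groups in 1 fit, with p adjusted by Benjamini-Hochberg over all 10451 tested genes, and a gene was called at an adjusted p under 0.01, with or without a fold over 3. The median tested gene was at -0.65 on the log2 scale in IKKβF/F Tat against IKKβF/F PBS and at 0.22 in IKKβΔMye Tat against IKKβF/F Tat. Median-ratio scaling, in which each library is divided by its median ratio to the average library, brought these to -0.03 and 0.01, and both scales are given below. Ikbkb, which encodes IKKβ and was targeted in IKKβΔMye mice, was 26.8 ± 1.99 (SD, n = 6), 23.2 ± 1.44 (n = 6) and 16.4 ± 2.59 TPM (n = 5) in the 3 groups, and the highest IKKβΔMye library (19.9 TPM) lay below the lowest IKKβF/F Tat library (21.6 TPM). The table gives 1 value per gene and does not separate the deleted exons. The macrophage markers Adgre1 and Cd68 were detected in every library, with Adgre1 at 499 ± 24.2, 441 ± 9.57 and 512 ± 32.1 TPM in the 3 groups. Summed T-cell markers ranged from 5.60 to 7.40 TPM in IKKβF/F Tat and from 10.7 to 13.1 TPM in IKKβΔMye Tat. The IKKβF/F PBS range, 6.27 to 12.7 TPM, overlapped both. Neutrophil markers summed to 50.8 to 60.3, 62.9 to 76.2 and 86.2 to 102 TPM in the 3 groups. S100a8 alone made up 53.8 ± 3.61, 68.6 ± 5.47 and 91.4 ± 6.61 TPM of their means. Sums for B-cell, NK-cell, mast-cell, eosinophil and mesothelial markers ranged from 0.897 to 35.3 TPM over all libraries; Mpo and Prg2 were at 0 in every IKKβF/F PBS library and Epx in every Tat library. The part of these cells in the results was not tested, and in bulk RNA fewer cells of a type and less RNA per cell cannot be told apart.

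In IKKβF/F PBS macrophages the family was led by its inhibitors. Nfkbia had the highest level, 203 ± 7.17 TPM, followed by Nfkbib at 97.99 ± 4.14 and Nfkb2 at 89.3 ± 3.35 TPM, whose ranges over libraries overlapped. Nfkb1 (67.9 ± 6.22 TPM), Rela (66.1 ± 2.54 TPM) and Relb (62.5 ± 3.98 TPM) were next, and neighbours among these overlapped as well. Bcl3 (44.0 ± 3.11 TPM) and Nfkbie (39.7 ± 1.51 TPM) overlapped each other, and Nfkbiz (21.5 ± 2.03 TPM) lay below both. Rel was the least abundant member in all 3 groups, at 9.63 ± 0.782 TPM with PBS. With Tat the order changed. Nfkb2 moved up to 649 ± 12.8 TPM in IKKβF/F Tat and overlapped Nfkbia at 653 ± 20.6 TPM, Nfkbiz moved above Relb and Bcl3 to overlap Rela, and Nfkbie took the ninth place.

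**Figure D1:**
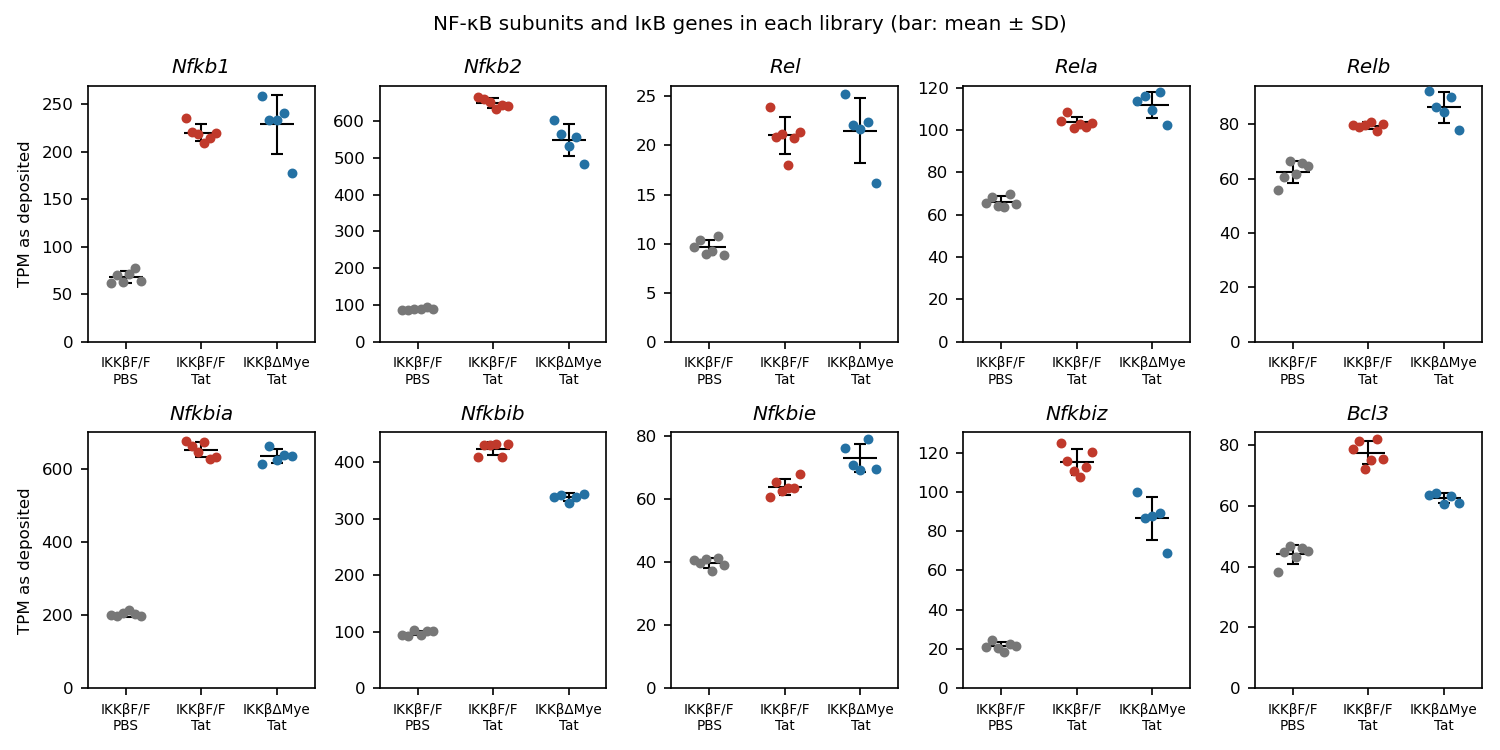
TPM as deposited (vertical axes, each from 0) of the 10 genes in each library of the IKKβF/F PBS (6), IKKβF/F Tat (6) and IKKβΔMye Tat (5) groups; points are libraries and bars are mean ± SD. With Tat every library of both genotypes lies above every IKKβF/F PBS library for all 10 genes, and Nfkb2, Nfkbib, Nfkbiz and Bcl3 are lower in all 5 IKKβΔMye Tat libraries than in any IKKβF/F Tat library.

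Tat raised the mRNA of all 10 genes in IKKβF/F macrophages, by 1.27-fold for Relb to 7.26-fold for Nfkb2. All 10 passed the adjusted p threshold upward, as did 17% of tested genes, whereas 67.6% passed it downward. Of these, 5 were also over 3-fold higher (Nfkb1, Nfkb2, Nfkbia, Nfkbib and Nfkbiz), as were 5.21% of tested genes, and 19.4% were over 3-fold lower. For all 10 the lowest IKKβF/F Tat library lay above the highest IKKβF/F PBS library, which was the case for 15.3% of tested genes, with the opposite separation in 62.4%. After median-ratio scaling, 37.1% of tested genes passed upward and 38.1% downward, and all 10 members still passed upward.

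Among the subunits Nfkb2 changed most as deposited, after scaling and after quantile normalization. Nfkb2 mRNA was 85.6, 88.9 and 95.2 TPM in the lowest, median and highest IKKβF/F PBS library and 633, 647 and 667 TPM in IKKβF/F Tat. The groups were far apart and the IKKβF/F Tat libraries were tightly spaced. This was a difference of 2.86 ± 0.04 on the log2 scale (SE; 3.49 after scaling) with an adjusted p of 5.41e-22 by limma, and it placed Nfkb2 at rank 204 from the top of the tested genes. Nfkb1 went from 61.4, 67.0 and 77.3 TPM to 209, 219 and 236 TPM. Its lowest IKKβF/F Tat library stood well above its highest IKKβF/F PBS library, and the difference was 1.70 ± 0.07 (2.33 after scaling and 1.75 after quantile normalization, adjusted p = 2.65e-14 by limma).

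The genes of the subunits with an activation domain rose less than Nfkb2, and Rela and Relb also rose less than Nfkb1. Rel, encoding c-Rel, was 8.88, 9.42 and 10.8 TPM with PBS and 18.0, 21.002 and 23.9 TPM with Tat, a difference of 1.12 ± 0.09 (1.74 after scaling, adjusted p = 4.28e-10 by limma). After quantile normalization, in which all libraries are given the same distribution, Rel was at 1.76 and so level with Nfkb1. Rela, encoding the p65 subunit of the main dimer, was 63.6, 65.2 and 69.9 TPM with PBS and 101, 103 and 108 TPM with Tat, a difference of 0.65 ± 0.04 (1.28 after scaling, adjusted p = 1.78e-12 by limma). Relb, the partner of p52 in the non-canonical pathway, was 55.8, 63.2 and 66.5 TPM with PBS and 77.3, 79.7 and 81.0 TPM with Tat, the smallest difference of the family at 0.35 ± 0.04 (0.98 after scaling, adjusted p = 4.63e-07 by limma). For all 3 genes the groups did not overlap. Relb ranked 1610 from the top, so that even the least changed member lay in the upper part of the tested genes, most of which were lower with Tat as deposited.

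All 3 cytoplasmic inhibitors rose as well, but unequally. Nfkbia was 197, 201 and 216 TPM in the lowest, median and highest IKKβF/F PBS library and 628, 655 and 676 TPM in IKKβF/F Tat, a difference of 1.68 ± 0.03 (2.32 after scaling, adjusted p = 1.05e-20 by limma). Nfkbib went from 93.1, 97.996 and 103 TPM to 409, 430.4 and 433 TPM, a difference of 2.11 ± 0.03 (2.75 after scaling, adjusted p = 3.75e-22 by limma). Nfkbie moved from 37.1, 40.2 and 41.1 TPM to 60.6, 63.4 and 67.7 TPM, a difference of 0.68 ± 0.04 (1.31 after scaling, adjusted p = 4.81e-12 by limma). For each gene the groups were far apart, and Nfkbib changed most. The ratio of Nfkbib to Nfkbia was 0.482 ± 0.0259 with PBS and 0.650 ± 0.0259 with Tat, and no library of one group reached the range of the other.

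The nuclear IκB genes differed from each other too. Nfkbiz was 18.7, 21.4 and 24.7 TPM with PBS and 107, 114 and 125 TPM with Tat, the second largest change of the family at 2.42 ± 0.07 (3.05 after scaling, adjusted p = 1.15e-16 by limma). Bcl3 was 38.2, 44.9 and 46.7 TPM with PBS and 72.1, 77.0 and 81.8 TPM with Tat, a difference of 0.81 ± 0.05 (1.45 after scaling, adjusted p = 2.13e-12 by limma). Nfkbiz therefore went from below Bcl3 in every IKKβF/F PBS library to above it in every IKKβF/F Tat library. For each of the 10 genes the exact two-sided permutation test gave 0.002165, the smallest p that 6 against 6 libraries can give.

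**Figure D2:**
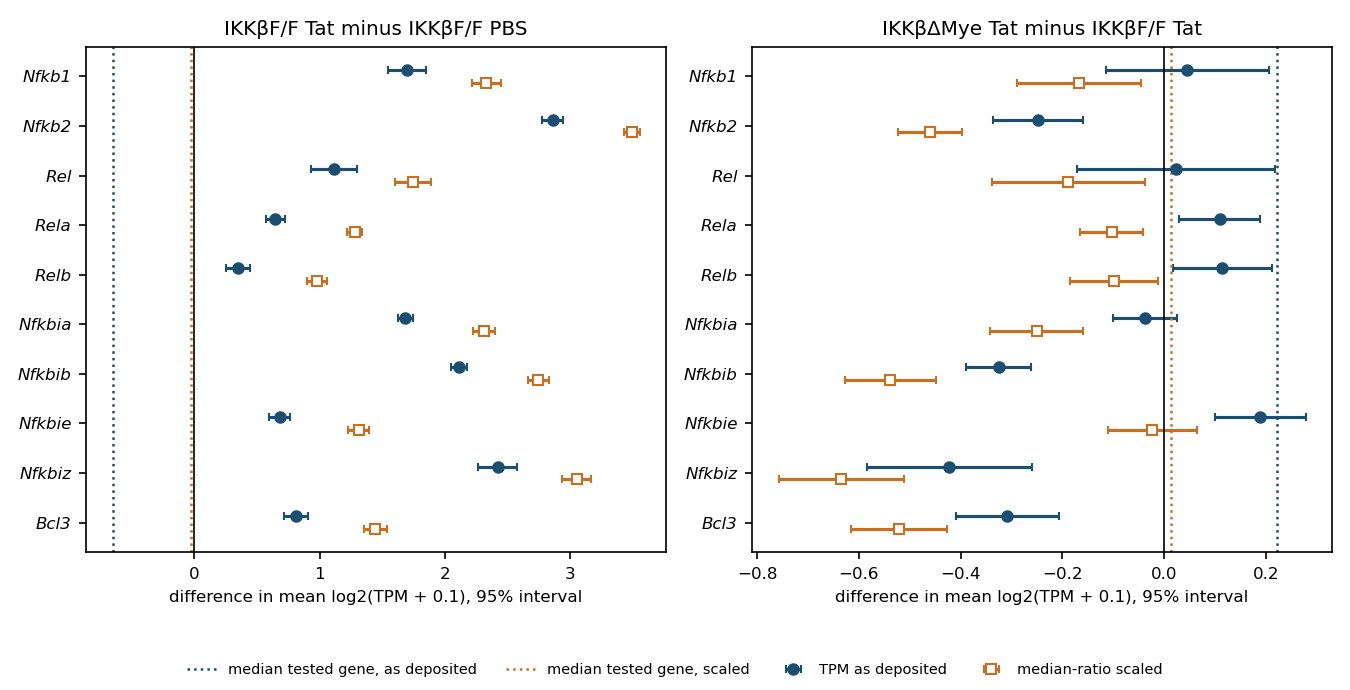
Difference in mean log2(TPM + 0.1) of each gene with its 95% interval from limma, IKKβF/F Tat minus IKKβF/F PBS (left) and IKKβΔMye Tat minus IKKβF/F Tat (right); filled circles are TPM as deposited, open squares the same after median-ratio scaling, and dotted lines mark the median tested gene on each scale. All 10 genes lie to the right of 0 on the left, from 0.35 (Relb) to 2.86 (Nfkb2) as deposited, and on the right all 10 lie to the left of the median tested gene of 0.22.

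In Tat-treated macrophages with deleted IKKβ, all 10 genes were above their level in IKKβF/F PBS, and 4 fell short of their level in IKKβF/F Tat. Relative to IKKβF/F Tat, 4 of the 10 genes were lower in IKKβΔMye Tat at the adjusted p threshold (Nfkb2, Nfkbib, Nfkbiz and Bcl3), against 8.87% of tested genes, 1 was higher (Nfkbie), against 38.8% of tested genes, and 5 did not pass. None of the 10 was over 3-fold different, whereas 0.44% of tested genes were so upward and 0.316% downward. The same 4 genes were lower without overlap between groups, which held for 8.01% of tested genes, and Nfkbie was higher without overlap, which held for 28.6%. After median-ratio scaling 6 genes were lower, the same 4 with Nfkbia and Rela, against 18.8% of tested genes, and 0 were higher, against 16.4%. On the deposited scale all 10 genes lay below the median tested gene.

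The nuclear IκB genes and Nfkbib differed most. Nfkbiz was 99.7, 86.9, 87.6, 89.2 and 69.1 TPM in IKKβΔMye libraries 19 to 23, against 107 to 125 TPM in IKKβF/F Tat. Even the highest IKKβΔMye library, 19, fell short of the IKKβF/F Tat range, and library 23 was lowest. The difference was -0.42 ± 0.08 (adjusted p = 1.29e-04 by limma; -0.64 after scaling), which left the deleted group at 75.0% of the IKKβF/F Tat level and at 4.02 times the IKKβF/F PBS level. Nfkbib was 338, 343, 328, 339 and 344 TPM, against 409 to 433 TPM in IKKβF/F Tat. These libraries were closely grouped, and the difference of -0.33 ± 0.03 had the smallest adjusted p of the family (4.07e-08 by limma; -0.54 after scaling). Bcl3 was 63.4, 64.0, 60.5, 63.3 and 60.7 TPM, against 72.1 to 81.8 TPM, again without overlap. Its difference was -0.31 ± 0.05 (adjusted p = 2.41e-05 by limma; -0.52 after scaling), which left 80.7% of the IKKβF/F Tat level.

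Of the subunit genes, Nfkb2 was lower. It was 602, 566, 533, 557 and 483 TPM in IKKβΔMye libraries 19 to 23, against 633 to 667 TPM in IKKβF/F Tat, with a difference of -0.25 ± 0.04 (adjusted p = 6.31e-05 by limma; -0.46 after scaling). All 5 libraries were below the IKKβF/F Tat range, and the mean was still 6.14 times that of IKKβF/F PBS. Nfkb1 was 259, 233, 233, 240.1 and 177 TPM, against 209 to 236 TPM. Library 23 was below the IKKβF/F Tat range, libraries 19 and 22 were above it and the others lay within it, and the difference was 0.05 (95% interval -0.11 to 0.21, adjusted p = 0.617 by limma) as deposited and -0.17 after scaling. Rel was 25.2, 22.1, 21.6, 22.3 and 16.2 TPM, against 18.0 to 23.9 TPM, and its difference of 0.02 (95% interval -0.17 to 0.22, adjusted p = 0.835 by limma) also turned to -0.19 after scaling and -0.15 after quantile normalization.

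Rela and Relb were slightly higher as deposited and slightly lower after scaling. Rela was 114, 116, 109, 118 and 102 TPM in IKKβΔMye libraries 19 to 23, against 101 to 108 TPM in IKKβF/F Tat, and only library 23 lay within the IKKβF/F Tat range. The difference was 0.11 (95% interval 0.03 to 0.19, adjusted p = 0.0183 by limma) and became -0.10 after scaling (adjusted p = 0.00744 by limma), on opposite sides of 0. Relb was 92.2, 86.4, 84.7, 89.9 and 77.7 TPM, against 77.3 to 81.0 TPM, with a difference of 0.11 (95% interval 0.02 to 0.21, adjusted p = 0.0414 by limma) as deposited and -0.10 after scaling. Library 23 was again the only IKKβΔMye library within the IKKβF/F Tat range.

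Nfkbia and Nfkbie, the IκBα and IκBε genes, did not follow Nfkbib. Nfkbia was 615, 664, 624.7, 639.8 and 637 TPM in IKKβΔMye libraries 19 to 23, and 628 to 676 TPM in IKKβF/F Tat. The ranges overlapped and the difference was -0.04 (95% interval -0.10 to 0.02, adjusted p = 0.281 by limma), whereas it was -0.25 after scaling (adjusted p = 1.07e-04 by limma) and 0.01 after quantile normalization. Nfkbie was 76.1, 70.6, 69.0, 78.9 and 69.5 TPM, against 60.6 to 67.7 TPM. All 5 libraries were above the IKKβF/F Tat range, with a difference of 0.19 ± 0.04 (adjusted p = 8.85e-04 by limma; exact two-sided permutation p = 0.00433), but it was -0.02 after scaling (adjusted p = 0.675 by limma) and 0.08 after quantile normalization (adjusted p = 0.101 by limma). The gain in Nfkbie thus depended on the scale.

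Because the direction of 5 genes turned with the scaling, each gene was also expressed relative to Rela in the same library, a ratio that no scaling of a library can move. On this measure the IKKβΔMye libraries were lower than the IKKβF/F Tat libraries, without overlap, for the same 4 genes. The mean log2 difference was -0.36 for Nfkb2, -0.44 for Nfkbib, -0.53 for Nfkbiz and -0.42 for Bcl3. The other 5 genes overlapped, with -0.06 for Nfkb1, -0.09 for Rel, 0.00 for Relb, -0.15 for Nfkbia and 0.08 for Nfkbie. Between IKKβF/F Tat and IKKβF/F PBS the same ratio was higher for Nfkb2 (2.21), Nfkbiz (1.78), Nfkbib (1.47), Nfkb1 (1.05), Nfkbia (1.04) and Rel (0.48), each without overlap. It was lower for Relb (-0.30), also without overlap, while Nfkbie (0.03) and Bcl3 (0.17) overlapped. The ratio of Bcl3 to Rela also overlapped between IKKβΔMye Tat and IKKβF/F PBS, at -0.25. This measure was added after the values were seen and carries no test.

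**Figure D3:**
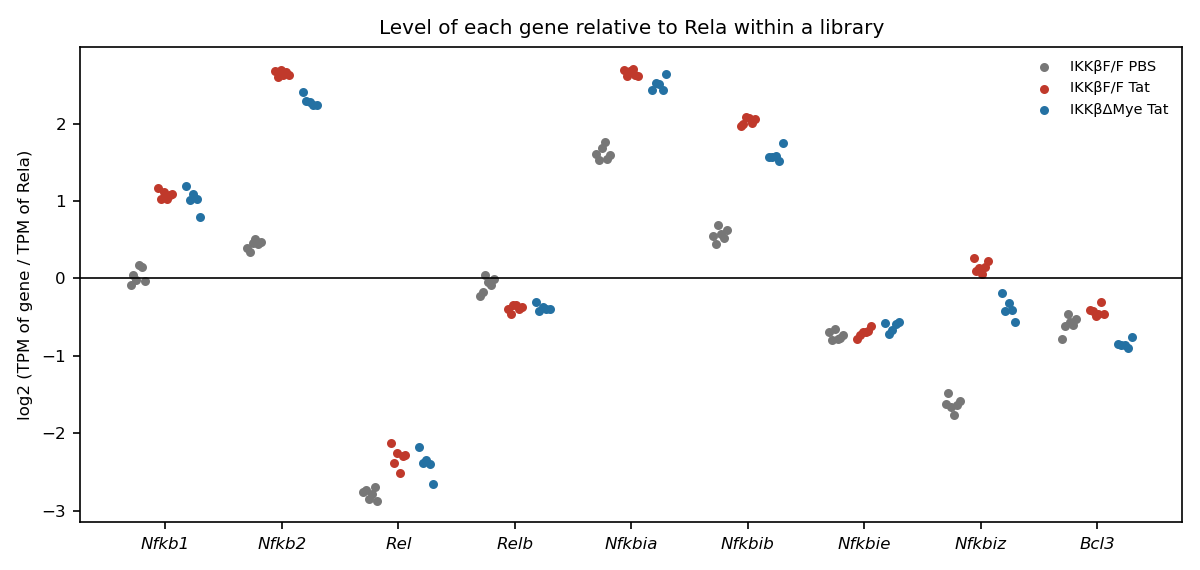
Log2 ratio of the TPM of each of the other 9 genes to that of Rela in the same library (vertical axis), with points for each library coloured by group. The IKKβΔMye Tat points lie below all IKKβF/F Tat points for Nfkb2, Nfkbib, Nfkbiz and Bcl3 and overlap them for Nfkb1, Rel, Relb, Nfkbia and Nfkbie; for Relb both Tat groups lie below IKKβF/F PBS.

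Within IKKβΔMye Tat the genes did not vary independently of transcript length. Library 23 was the lowest of its group for 6 of the 10 genes, and its deviation from the median of the other 4 libraries was -0.45 on the log2 scale for Rel (longest annotated transcript 7466 bases), -0.42 for Nfkb1 (4149 bases) and -0.36 for Nfkbiz (4115 bases), but 0.01 for Nfkbia (1578 bases) and 0.02 for Nfkbib (2061 bases). Library 19 deviated the other way, by 0.21 for Rel, 0.15 for Nfkb1 and -0.05 for Nfkbia. For all genes at 10 TPM or more, each library was likewise set against the median of the other libraries of its group. Genes with transcripts of 5000 bases or more deviated by a median of -0.30 in library 23 and by 0.19 in library 19. Those under 1500 bases deviated by 0.07 and -0.05. Without libraries 19 and 23, a setting added after the values were seen, the same 4 genes were lower (Nfkb2 -0.23, Nfkbib -0.33, Nfkbiz -0.39 and Bcl3 -0.30). Rela then also passed the threshold upward (0.14, adjusted p = 0.00468 by limma), and it did so without library 23 alone (0.14, adjusted p = 0.00189 by limma), as did Relb (0.15, adjusted p = 0.00620 by limma). In IKKβF/F Tat against IKKβF/F PBS, where all 10 members rose, the same long and short classes of all genes at 10 TPM or more were at medians of -0.26 and -0.66.

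**Figure D4:**
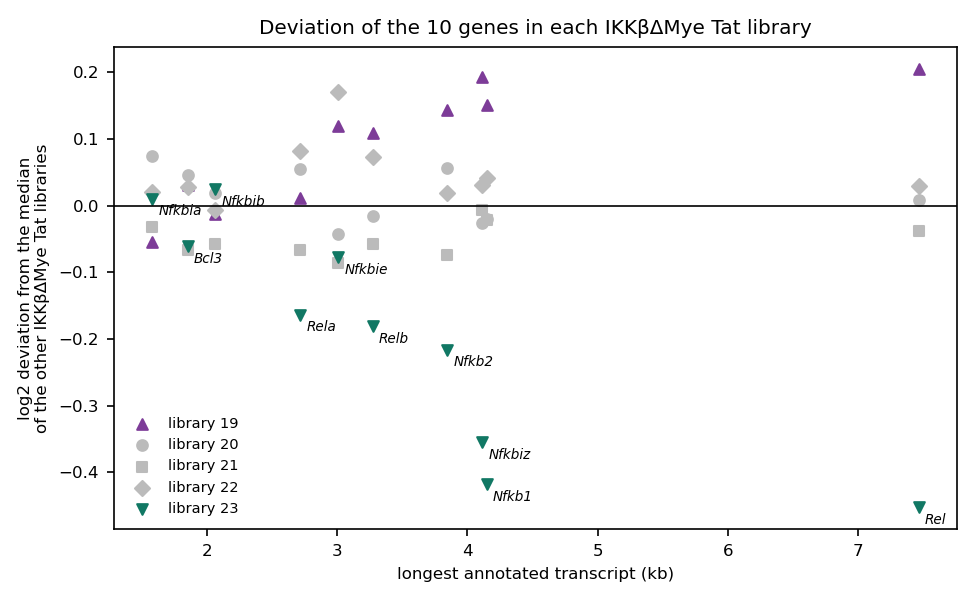
Log2 deviation of each of the 10 genes in each IKKβΔMye Tat library from the median of the other 4 (vertical axis), against the length of its longest annotated transcript in kb (horizontal axis); marker shapes stand for libraries and names label the points of library 23. Library 23 lies near 0 for Nfkbia (0.01) and Nfkbib (0.02) and at -0.45 for Rel, while library 19 lies at 0.21 for Rel.

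Relative to IKKβF/F PBS, IKKβΔMye Tat macrophages were higher for all 10 genes. All 10 passed the adjusted p threshold, as did 17.5% of tested genes, 5 of them over 3-fold (Nfkb1, Nfkb2, Nfkbia, Nfkbib and Nfkbiz), as did 4.38% of tested genes, and none overlapped, which held for 14.8% of tested genes. The log2 differences were 2.61 for Nfkb2, 1.998 for Nfkbiz, 1.79 for Nfkbib, 1.74 for Nfkb1, 1.65 for Nfkbia, 1.14 for Rel, 0.87 for Nfkbie, 0.76 for Rela, 0.51 for Bcl3 and 0.46 for Relb. The smallest of these, for Relb, had an adjusted p of 2.43e-08 by limma. This comparison differs in genotype and treatment at once and shares its libraries with both others, so it does not give the effect of Tat in IKKβ-deleted cells.

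The make-up of the family changed with Tat. The summed level of the 10 genes was 702 ± 19.8 TPM in IKKβF/F PBS, 2407 ± 39.6 TPM in IKKβF/F Tat and 2193 ± 99.6 TPM in IKKβΔMye Tat. Nfkb2 made up 30.2 ± 0.576% of the subunit TPM with PBS, 60.5 ± 0.336% in IKKβF/F Tat and 55.1 ± 0.896% in IKKβΔMye Tat, and no 2 groups overlapped. The share of Rela was 22.4 ± 0.766%, 9.65 ± 0.221% and 11.3 ± 0.567%, and that of Relb 21.2 ± 1.09%, 7.41 ± 0.212% and 8.66 ± 0.264%. Nfkb2 and Relb, whose products pair in the non-canonical pathway, were at a ratio of 1.43 ± 0.0702 with PBS, 8.17 ± 0.227 in IKKβF/F Tat and 6.36 ± 0.174 in IKKβΔMye Tat. Rela exceeded Rel by 6.88 ± 0.321 times with PBS and by 4.96 ± 0.448 and 5.28 ± 0.657 times with Tat.

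The sums of cytoplasmic IκB and of subunit mRNA were close to each other in every group. Nfkb1 and Nfkb2 were counted as subunits only, although p105 and p100 also hold partner subunits in the cytoplasm, so the balance depends on this assignment. The 3 cytoplasmic IκB genes summed to 341 ± 8.10 TPM in IKKβF/F PBS, 1141 ± 24.03 TPM in IKKβF/F Tat and 1047 ± 22.8 TPM in IKKβΔMye Tat, and the 5 subunit genes to 296 ± 13.5, 1073 ± 23.7 and 996 ± 87.3 TPM. Their ratio was 1.16 ± 0.0510, 1.06 ± 0.0305 and 1.06 ± 0.104, with ranges of 1.08 to 1.21, 1.03 to 1.12 and 0.942 to 1.23 that all overlapped. Between the IKKβF/F groups this overlap rested on Tat library 10, at 1.12. The other IKKβF/F Tat libraries, at 1.03 to 1.06, lay below the lowest IKKβF/F PBS library (1.08). With Nfkbiz and Bcl3 counted among the inhibitors the overlap between the IKKβF/F groups was lost, the range being 1.296 to 1.44 in IKKβF/F PBS and 1.22 to 1.294 in IKKβF/F Tat, while IKKβΔMye Tat (1.09 to 1.38) overlapped both. No test was run on either ratio, whose genes were chosen as a set. In IKKβΔMye Tat both were lowest in library 19 and highest in library 23, the libraries in which long transcripts were high and low. Within the inhibitors, Nfkbia held 50.01 ± 1.44%, 49.0 ± 0.894% and 53.2 ± 1.01% of the TPM of the 5 IκB genes, and Nfkbib 24.1 ± 0.743%, 31.8 ± 0.814% and 28.3 ± 0.518%.

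**Figure D5:**
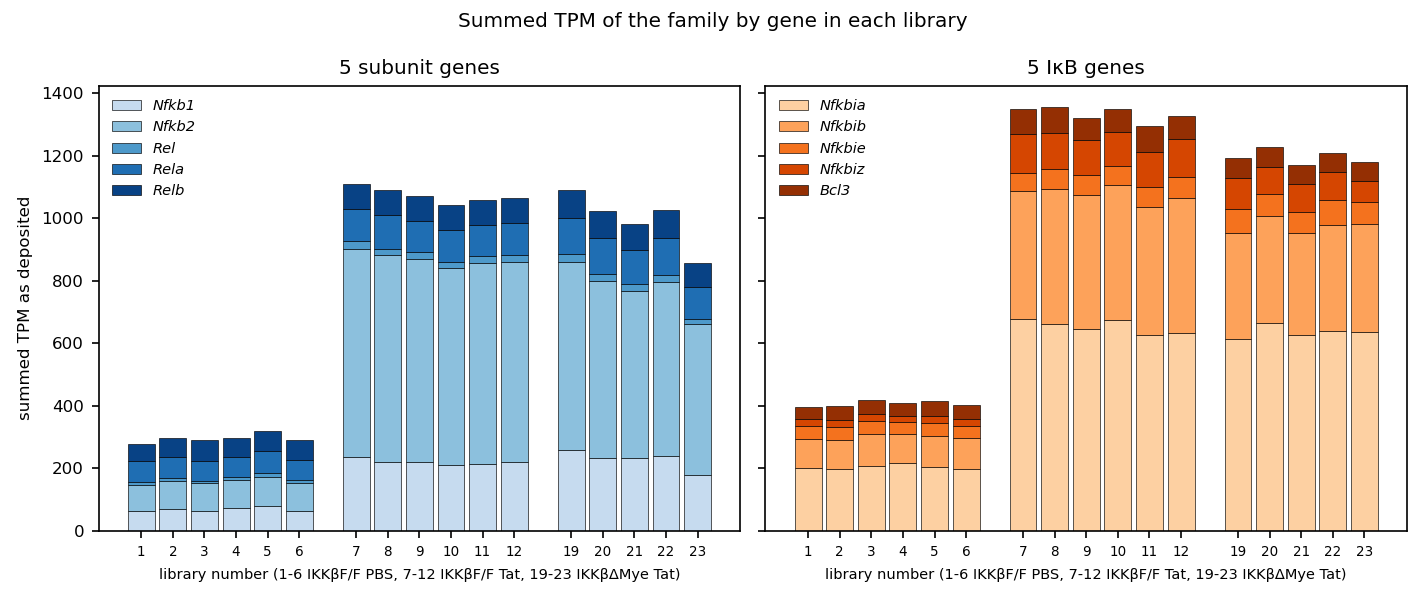
Stacked TPM of the 5 subunit genes (left) and the 5 IκB genes (right) in each of the 17 libraries, with the library number on the horizontal axis. Nfkb2 makes up most of the subunit TPM in every Tat library, and Nfkbia and Nfkbib most of the IκB TPM in every library.

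The other genes of the pathway, listed by known role, moved in both directions with Tat as deposited. The share of all tested genes to set beside the counts that follow was 17% upward and 67.6% downward with Tat (37.1% and 38.1% after scaling), and 38.8% upward and 8.87% downward in IKKβΔMye Tat against IKKβF/F Tat (16.4% and 18.8% after scaling). Of the other IκB-like genes, Nfkbid, a nuclear IκB that partners p50, was 11.9 ± 0.991 TPM in IKKβF/F PBS, 27.6 ± 1.28 TPM in IKKβF/F Tat and 18.4 ± 1.70 TPM in IKKβΔMye Tat. It rose by 1.21 with Tat (adjusted p = 7.38e-13 by limma) and was lower in IKKβΔMye Tat by -0.58 (adjusted p = 6.02e-07 by limma; -0.80 after scaling), in the direction of Nfkbiz and Bcl3. Among 10 kinase and adaptor genes upstream of IκB, 3 were higher with Tat (Ikbkg, Tbk1 and Tab2), 4 were lower (Chuk, Map3k14, Map3k7 and Tab1) and 3 did not pass, and their median was -0.08. After scaling, 7 were higher and 2 lower. Tab1, an adaptor of the kinase TAK1, had the largest difference of these as deposited, from 9.12 ± 0.421 to 3.58 ± 0.652 TPM (-1.34, adjusted p = 7.11e-10 by limma). Tbk1, a kinase of the IKK-related group, was the most raised of these, at 44.7 ± 2.36 TPM with PBS and 78.1 ± 2.18 TPM in IKKβF/F Tat (0.80, adjusted p = 8.49e-14 by limma), and was 78.2 ± 2.99 TPM in IKKβΔMye Tat. In IKKβΔMye Tat against IKKβF/F Tat, 3 of the 10 were higher (Chuk, encoding IKKα, 15.4 ± 0.541 to 20.6 ± 1.21 TPM; Ikbke; and Map3k7), 1 was lower (Ikbkb) and 6 did not pass. After scaling 2 were higher (Chuk and Map3k7) and 3 lower, Ikbkb with Ikbkg (-0.38, adjusted p = 2.01e-05 by limma) and Tbk1 (-0.21, adjusted p = 2.60e-05 by limma), and Ikbke was at -0.01.

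Genes that remove IκB or control NIK, the kinase that starts p100 processing, gave the following counts. Of 8 measured genes of the ubiquitin ligase and its conjugating enzymes, 3 were higher with Tat (Fbxw11, Ube2d3 and Ube2r2) and 4 lower as deposited. After scaling 6 of the 8 were higher with Tat and 0 lower, with Cul1 (0.35) and Rbx1 (0.37) turned upward. In IKKβΔMye Tat against IKKβF/F Tat, 2 were higher (Cul1 and Skp1a) and 0 lower as deposited. Both of these lost the call after scaling, when 3 were lower. Fbxw11, encoding a βTrCP protein that recognises phosphorylated IκB, was 30.4 ± 1.59 TPM with PBS, 41.2 ± 0.841 TPM in IKKβF/F Tat and 42.0 ± 1.54 TPM in IKKβΔMye Tat. Of 5 genes of NIK turnover, Traf2 (18.2 ± 1.31 to 33.6 ± 1.68 TPM) and Birc3 (55.0 ± 3.86 to 99.7 ± 2.56 TPM) rose with Tat and Traf3 fell by 0.41 on the log2 scale as deposited but was at 0.22 after scaling. After scaling 4 of the 5 passed upward with Tat and 0 downward. In IKKβΔMye Tat, Traf3 was higher than in IKKβF/F Tat (0.44, adjusted p = 8.45e-04 by limma; 0.23 after scaling, adjusted p = 0.0357) and the other 4 did not pass. After scaling none of the 5 was higher, and Traf2 (-0.29, adjusted p = 1.21e-04 by limma) and Birc3 (-0.30, adjusted p = 7.28e-06 by limma) were lower. Of 12 nuclear partners and modifiers, 1 was higher with Tat (Hdac1), 8 were lower, a share like that of all tested genes, and 3 did not pass. Setd7, a lysine methyltransferase gene, was over 3-fold lower but at a low level (3.45 ± 0.651 to 1.03 ± 0.187 TPM, -1.66). After scaling 7 of the 12 were higher and 1 lower, so their direction rests on the scale. Both genes of the small GTPases that bind IκBβ were lower with Tat as deposited and neither passed after scaling. Nkiras2 was the member of that pair at a measurable level in every group, at 106 ± 7.05, 73.1 ± 2.65 and 62.7 ± 3.08 TPM.

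Of 7 genes known to need IκBζ in macrophages, 6 were over 3-fold higher with Tat and 1, Cebpd, was lower. In IKKβΔMye Tat, where Nfkbiz was lower, 4 were lower (Il6, Csf2, Csf3 and Lcn2), 2 were higher (Il12b and Cebpd) and Edn1 did not pass (-0.25, adjusted p = 0.288 by limma), with the same counts after scaling. Edn1, encoding endothelin, was nevertheless lower without overlap between the groups, at 178 ± 4.39 against 212 ± 6.57 TPM, and its SE of 0.20 is from the fit shared with IKKβF/F PBS, where it was at 0.398 ± 0.244 TPM. Csf3, the granulocyte colony-stimulating factor gene, was 363 ± 24.1 TPM in IKKβF/F Tat and 50.9 ± 6.30 TPM in IKKβΔMye Tat, a difference of -2.84 (adjusted p = 1.57e-14 by limma). Il6 was 3393 ± 180.3 and 1244 ± 26.8 TPM, and Il12b went the other way, from 391 ± 17.6 to 638 ± 55.9 TPM. The list thus held genes lower and genes higher in IKKβΔMye Tat.

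For each gene, the nearest tested genes outside the family were found by likeness of pattern over the 17 libraries. The measure was the root mean square difference in log2(TPM + 0.1) after each gene was centred on its own mean. Nfkb2 was nearest to Zc3h12a (0.09), which encodes an RNase that degrades cytokine mRNA, and Ptges (0.10), the inducible prostaglandin E synthase. Nfkbiz was nearest to Slc15a3 and Lacc1 (both 0.11), Nfkbib to Zbp1 (0.06) and Gch1 (0.09), and Nfkbia to Slfn2 and Bcl2a1b (both 0.06). Bcl3 was nearest to Ddx24 (0.07) and Wfdc17 (0.08). Rela was nearest to Slc31a2 (0.05) and Pik3ap1 (0.06), Relb to Xylt2 (0.06) and Dnajc21 (0.07), Nfkb1 to Scarf1 and Mki67 (both 0.10), and Rel to Man2a1 (0.07) and Vps54 (0.08). Nfkbie was nearest to Ier5 and to Slc31a2 (both 0.07), and within the family Rela and Nfkbie were the closest pair (0.07). These likenesses are over all 17 libraries, so the spread within groups enters them, and they are descriptions.

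By the GENCODE M21 annotation of GRCm38 the 10 genes lie on 7 chromosomes. Nfkb1 (ENSMUSG00000028163) is the longest, at chr3:135584655-135691547 on the minus strand, and Nfkbia (ENSMUSG00000021025) the shortest, at chr12:55489410-55492647 on the minus strand. Nfkbib (ENSMUSG00000030595, chr7:28758251-28767512), Relb (ENSMUSG00000002983, chr7:19606217-19629438) and Bcl3 (ENSMUSG00000053175, chr7:19808462-19822770) share chromosome 7, and Nfkb2 (ENSMUSG00000025225, chr19:46304320-46312385) and Rela (ENSMUSG00000024927, chr19:5637483-5648130) chromosome 19. Rel (ENSMUSG00000020275) is at chr11:23736847-23770970, Nfkbiz (ENSMUSG00000035356) at chr16:55811375-55838899 and Nfkbie (ENSMUSG00000023947) at chr17:45555703-45563169. At most 1.81% of the 31-base words of any of the 10 genes (Relb) occurred in another gene. Exons of other genes on the opposite strand covered 18.1% of the exonic bases of Nfkb2, 16.4% of Nfkbib and 6.51% of Bcl3, and the sources used here do not say whether reads were assigned by strand. Psd, opposite Nfkb2, was at 0.0692 TPM or below in group means. AC114539.1, also opposite Nfkb2, and Gm16175, opposite Bcl3, had no measured value, so their levels are unknown. Sirt2, opposite Nfkbib, was at 144 ± 4.47, 107 ± 2.49 and 121 ± 3.96 TPM in the 3 groups as deposited. On that scale it was lower with Tat and higher in IKKβΔMye Tat than in IKKβF/F Tat, the reverse of Nfkbib. The median tested gene moved in the same directions as Sirt2 (-0.65 and 0.22). Sirt2 was not compared after scaling, and the part of opposite-strand reads in Nfkbib was not tested.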

How the data were processed

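RNA-Seq was performed on 17 libraries of peritoneal macrophages, grouped by the genotype and treatment in the labels. The authors quantified reads with Salmon against the Ensembl mouse annotation (GRCm38, mm10) and deposited TPM per gene; no counts were used here, so the depth and counting precision of each library are unknown, and the count test the authors applied could not be run. Listed TPM summed to 889318 to 903576 per library, and 26 rows carried a date in place of a symbol. Genes reaching 1 TPM in no fewer than 5 libraries entered a fit with limma 3.58.1 (R 4.3.3) on log2(TPM + 0.1), with 14 residual degrees of freedom, an eBayes trend and Benjamini-Hochberg adjustment over all tested genes. Folds are on that scale and understate the change of low genes. The fit was tested on simulated data. Differences of single genes between 2 groups in mean log2(TPM + 0.1) were tested with exact two-sided permutation tests over all regroupings of their libraries. The named genes were the 10 members, the other pathway genes by role, and for each member the 2 nearest tested non-member genes over the 17 libraries. Members, lists and tests were chosen with earlier results of these data known. Other settings tried were a pseudocount of 0.5 or 1, a 5 TPM filter or none, median-ratio scaling, quantile normalization, fits on the compared groups alone, robust weights, a fold of 2, and leaving out each library. Transcript lengths came from GENCODE M21, and promoters from RefSeq. An allele shared by all mice and some listed genes are not reported here.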

Additional observations from a re-analysis of the deposited data

Results flagged for a closer look

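In IKKβF/F Tat, the ratio of summed cytoplasmic IκB TPM (Nfkbia, Nfkbib and Nfkbie) to summed subunit TPM was 1.12 in library 10 and between 1.03 and 1.06 in the other 5 libraries, a gap of 0.648 of the range, above the critical 0.625 for 6 values. Of 33 groups of values examined in this way, this was the 1 found. Chance alone gives about 1 in 20, so 1 among 33 is no more than chance would give. Transcripts of 5000 bases or more deviated by a median of -0.13 on the log2 scale in that library, and those under 1500 bases by 0.03; their part in the ratio was not tested.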

How the results depend on the processing

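In IKKβF/F Tat against IKKβF/F PBS and in IKKβΔMye Tat against IKKβF/F PBS, the log2 differences of all 10 genes kept their direction and stayed past the threshold in all 200 refits each (0.32 to 3.49 and 0.43 to 3.03). In IKKβΔMye Tat against IKKβF/F Tat, 184 of 200 refits kept the direction and the side of the threshold, including refits of genes that did not pass. Nfkb2, Nfkbib, Nfkbiz and Bcl3 were lower and past the threshold in every setting run. Median-ratio scaling turned Nfkb1 to -0.167, Rel to -0.188, Rela to -0.103, Relb to -0.0984 and Nfkbie to -0.0235, and quantile normalization turned Rel to -0.153 and Nfkbia to 0.0123; both scalings move the median tested gene. The number of genes higher was 1, but 0 with median-ratio scaling, 0 with quantile normalization, 2 with robust weights, and 2 without IKKβΔMye libraries 19 and 23, chosen after seeing the data. Leaving out 1 library at a time gave 1 to 3, the 3 without library 23 (Nfkbie, Rela and Relb), and ranges of -0.0021 to 0.135 for Nfkb1 and -0.0373 to 0.121 for Rel, whose direction turned without IKKβΔMye library 19 and, for Rel, also without IKKβF/F Tat library 10 (-0.019). The ratio of cytoplasmic IκB to subunit TPM was 0.467, 0.455 and 0.415 in the 3 groups without Nfkbia and 1.38, 1.24 and 1.21 with Nfkbiz and Bcl3 added, by construction of the sum. No paired analysis was possible because the library numbers are unique to each library and the groups share none. Read depth is unknown from TPM, so its limit on low genes, such as Rel among these 10, could not be set.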
